A study of Mus musculus with 6 samples.

Results

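A set of 10 genes of the MHC class II antigen presentation pathway were examined in colonic lamina propria macrophages (MΦs): H2-Aa, H2-Ab1, H2-Eb1, H2-DMa, H2-DMb1, H2-DMb2, H2-Oa, Cd74, Ciita and Ctss. They were chosen by name for their role in the pathway, not by their values, and each of them was among the 14097 genes of the deposited table. RNA-seq was done on 6 libraries of P3/P4 MΦs, the mature fraction of lamina propria MΦs, from mice of the 129SvEv strain. Il10rb-/- mice, which lack the β chain of the IL10 receptor in every cell, were compared with Il10rb+/- mice, which keep 1 intact copy of the gene, at 1, 3 and 12 weeks of age. No animal was treated. The study reports that mice without this receptor chain develop colitis from around weaning, with raised Ifng expression in the colon. At 3 and 12 weeks genotype therefore cannot be told apart from the state of the tissue. The part of inflammation in the differences between genotypes was not tested. Each genotype had 1 library at each age, made from 1 mouse at 3 and 12 weeks and from the pooled colons of several mice at 1 week. The cells were sorted as CD45+, CD11b+, CD11c intermediate, CD103-, CD64+, Ly6C- and MHCII+, so the sort itself kept cells with class II protein on their surface, and the values below describe transcript levels within that gate. In such bulk RNA, fewer cells of a type and less RNA per cell cannot be told apart.

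MHC class II molecules are pairs of an α and a β chain that carry peptides from ingested material to the cell surface, where CD4+ T cells read them. H2-Aa and H2-Ab1 encode the chains of the mouse I-A molecule, and H2-Eb1 encodes the β chain of I-E. Cd74 encodes the invariant chain, which occupies the peptide groove during assembly and is trimmed in the endosome by proteases such as cathepsin S, the product of Ctss. H2-DM, made of H2-DMa with H2-DMb1 or H2-DMb2, then exchanges the remaining fragment for peptide, and H2-O, whose α chain is H2-Oa, restrains H2-DM. Ciita is the coactivator that switches the class II genes on, bound to factors that sit on the X and Y boxes of their promoters. Class II expression is a defining property of resident MΦs in the colon and is raised by interferon γ.

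The libraries held between 6700337 and 40754971 reads on the listed genes, read back from the deposited normalized counts. The shallowest was 3-week Il10rb+/- and the deepest 12-week Il10rb+/-. Il10rb matched the labels: it had 1231, 386 and 2341 reads in the Il10rb+/- libraries and 8, 28 and 43 in the Il10rb-/- libraries at 1, 3 and 12 weeks. The 1-week Il10rb+/- pool stood apart in 1 respect, with 1123 reads on 4 Y-linked genes against 5 to 46 in the other libraries. The study used mice of both sexes, and the labels do not give the sex of a library. Sex therefore cannot be told apart from genotype at 1 week, or from age where Il10rb+/- MΦs are compared with 1 week. The gate's own markers were present (Ptprc, Itgam, Itgax, Fcgr1 and Csf1r), and Itgae, which encodes CD103, had at most 53 reads. Ly6c2, which encodes an antigen that the gate excludes, reached 2611 normalized counts in 12-week Il10rb-/- MΦs and 285 in 3-week Il10rb-/- MΦs, against 4.49 to 143 in the other 4 libraries. Ly6c1, another Ly6C gene, went the other way at 12 weeks, at 585 (Il10rb+/-) and 116 (Il10rb-/-) normalized counts with a log2 ratio of -2.34, and had at most 17 reads in the earlier libraries.

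Class II transcripts were among the most abundant in these cells. Cd74 ranked 1 of all genes by normalized counts in each of the 6 libraries, H2-Ab1 between 2 and 4, H2-Aa between 3 and 6 and H2-Eb1 between 5 and 9. These 4 genes alone took 5.04% of the reads of the 1-week Il10rb+/- library and 5.83% of those of its Il10rb-/- partner. The share was 5.79% and 6.20% at 3 weeks, and 7.72% and 6.19% at 12 weeks. At 12 weeks it was therefore higher in the Il10rb+/- library, and at the other ages in the Il10rb-/- library.

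To compare levels between genes, reads were divided by exon length and expressed as TPM, a length-corrected share of the listed genes of a library. Cd74 lay highest, between 44786 and 64577 TPM over the 6 libraries. H2-Ab1 followed at 12851 to 20462 TPM and H2-Eb1 at 10904 to 14935, and these ranges overlapped. H2-Aa lay below both at 6850 to 8990 TPM, and Ctss at 3840 to 4985. The accessory chains lay lower, with H2-DMb1 at 990 to 1243 TPM, H2-DMa at 660 to 946 and H2-DMb2 at 149 to 343. Ciita, at 74.9 to 156 TPM, and H2-Oa, at 61.1 to 133, closed the order, and their ranges overlapped each other, while that of Ciita also reached that of H2-DMb2. The order depends on the length used. The length of the principal transcript was at hand for 8 of the 10 genes, while Ciita and Ctss kept their exon length. With these lengths H2-Aa passed H2-Eb1, H2-DMa passed H2-DMb1 and H2-Oa passed Ciita. The change between H2-Oa and Ciita thus sets a principal length against an exon length. Ranges over libraries hold both genotypes and the 3 ages, and are not replicate error.

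The 7 H2 genes lie in the MHC on chromosome 17 of GRCm38 (mm10), from H2-Oa, which starts at 34092340, to H2-Eb1, which ends at 34316674. Their order is H2-Oa, H2-DMa, H2-DMb2, H2-DMb1, H2-Ab1, H2-Aa and H2-Eb1. They are not all adjacent: H2-Ob, which encodes the β chain of H2-O, lies between H2-DMb1 and H2-Ab1. Ciita is at chr16:10480059-10528418 and Ctss at chr3:95526786-95556403. Promoters, here 250 bases before to 50 after the RefSeq gene start on GRCm38.p6, were at hand for H2-Aa, H2-Eb1, H2-DMa, H2-DMb1, H2-DMb2, H2-Oa and Ctss. They were searched on both strands for the core of the X box (ACNGATG) and for the Y box (ATTGG), with the X core 10 to 40 bases before the Y box, counted between starts. That ordered pair was in the promoters of H2-Eb1, H2-DMb1 and H2-DMb2 and in 77 of the 32851 promoters of the RefSeq table (0.234%). The X core alone was in 9.85% and the Y box alone in 37.4% of them. The stretches of H2-Eb1 (chr17:34305759-34305832) and H2-DMb2 (chr17:34145109-34145183) are shown because they hold the pair, with the X core and the Y box in capitals. That of H2-Aa (chr17:34287847-34287916, minus strand) is shown as a case without this pair of letters. Its Y box is in capitals, with no X core of these letters at the searched spacing before it. Its promoter holds an X core elsewhere, 232 bases before the start and on the opposite strand. That of H2-Oa holds one 137 bases before the start, and both lie outside the searched spacing. That of Ctss holds an X core 206 bases before the start and no Y box. For H2-DMa no X core was found, and a Y box lay 198 bases before a RefSeq start. The 3 stretches shown are written 5′ to 3′ on the strand of the gene.
H2-Eb1: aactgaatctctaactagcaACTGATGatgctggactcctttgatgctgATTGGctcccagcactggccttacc
H2-DMb2: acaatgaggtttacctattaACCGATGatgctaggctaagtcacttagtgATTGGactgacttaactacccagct
H2-Aa: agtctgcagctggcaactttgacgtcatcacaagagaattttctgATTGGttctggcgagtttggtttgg

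The starts of the X core and the Y box were 29 bases apart in H2-Eb1 and 30 apart in H2-DMb1 and H2-DMb2. The Y box lay 59, 61 and 90 bases before the RefSeq starts of these genes, 48 before that of H2-Aa and 43 before that of H2-Oa. A match describes these letters and is not evidence of a bound factor. A missing match is not evidence that a promoter, such as that of H2-Aa, lacks an X box.

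**Figure D1:**
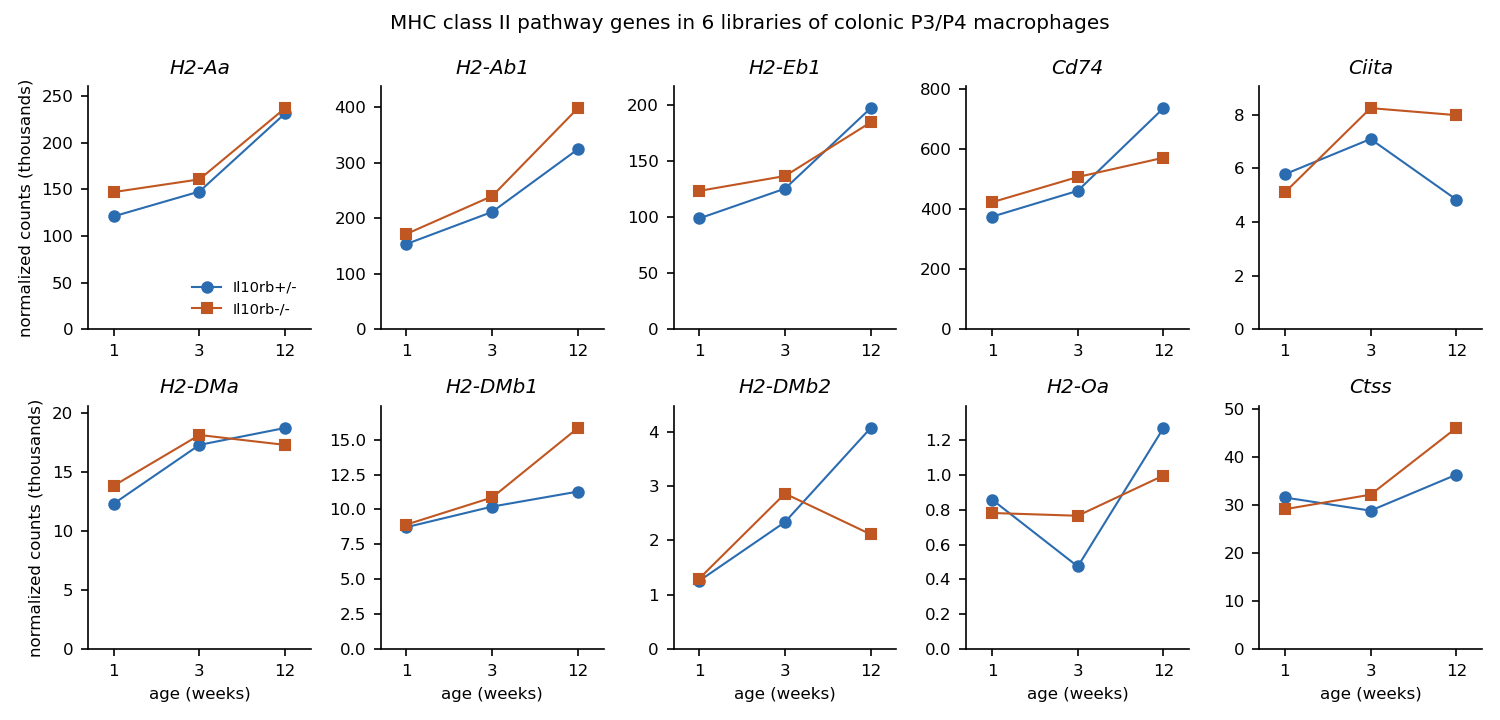
Normalized counts (axis in units of 1000, linear from 0) of the 10 genes by age in weeks, with circles for Il10rb+/- and squares for Il10rb-/- libraries, 1 library per point and no error bars. H2-Aa, H2-Ab1, H2-Eb1 and Cd74 were highest at 12 weeks in both genotypes by these values, which for H2-Eb1 and Cd74 in Il10rb-/- MΦs did not hold in RPM, and H2-DMb2 parted between genotypes at 12 weeks (4067 against 2110).

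The first question was whether the class II chains themselves differed between the genotypes. They did not differ by more than 1.25-fold between the genotypes at any age. Each pair of values gives Il10rb+/- first and Il10rb-/- second, in normalized counts. H2-Aa was at 121104 and 147122 at 1 week, 147724 and 160779 at 3 weeks, then 231521 and 237194 at 12 weeks. H2-Ab1 was at 153618 and 171779, then 211504 and 239990, then 324510 and 398482. H2-Eb1 was at 98677 and 123178, then 125180 and 136409, then 196862 and 184216. H2-Ab1 was higher in the Il10rb-/- library at each age, H2-Aa likewise but with nearly equal values at 12 weeks, and H2-Eb1 was lower at 12 weeks. On the log2 scale, the ratios of Il10rb-/- over Il10rb+/- at 1, 3 and 12 weeks were 0.28, 0.12 and 0.03 for H2-Aa, 0.16, 0.18 and 0.30 for H2-Ab1, and 0.32, 0.12 and -0.10 for H2-Eb1. The 12-week value of H2-Aa changed sign, to -0.19, when libraries were scaled by their total reads (RPM) in place of the authors' size factors, which lowered the median of all genes in that comparison by 0.22. The 95% counting intervals of these 9 ratios reached at most 0.02 to either side of the value and cover counting error only.

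At 12 weeks the invariant chain was lower in Il10rb-/- MΦs, unlike H2-Aa and H2-Ab1 by normalized counts, while H2-Eb1 was lower by less. At 1 week Cd74 was at 374208 (Il10rb+/-) and 422300 (Il10rb-/-) normalized counts, at 3 weeks at 460282 and 506153, and at 12 weeks at 735194 and 570236. The log2 ratio was 0.17 and 0.14 at the earlier ages and -0.37 (95% counting interval -0.37 to -0.36) at 12 weeks, a level 1.29-fold lower in Il10rb-/- MΦs. Ctss differed in the other direction. It was at 31510 and 29073 normalized counts at 1 week, 28776 and 32096 at 3 weeks, then 36249 and 45968 at 12 weeks, with a log2 ratio of 0.34 (0.33 to 0.36) at 12 weeks. For Ctss, 37.7% of all genes tested had a smaller absolute ratio at 12 weeks.

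Ciita, the coactivator, had the highest ratio of the 10 genes at 12 weeks, in RPM as well (0.50). Its normalized counts at 1 week were 5784 (Il10rb+/-) and 5106 (Il10rb-/-), at 3 weeks 7101 and 8253, and at 12 weeks 4839 and 7991. The log2 ratio was -0.18 (95% counting interval -0.24 to -0.12) at 1 week, 0.22 (0.16 to 0.28) at 3 weeks and 0.72 (0.69 to 0.76) at 12 weeks, or 1.65-fold. Of all genes tested, 65.4% had a smaller absolute ratio at 12 weeks. The level of Ciita did not follow that of the genes it acts on: it was lowest in 12-week Il10rb+/- MΦs, the library in which Cd74 was highest and H2-Aa and H2-Ab1 were second highest. Per 100 reads of H2-Ab1 there were 3.77 and 2.97 reads of Ciita at 1 week, 3.36 and 3.44 at 3 weeks, then 1.49 and 2.01 at 12 weeks. A stretch of 3.45% of the exon length of Ciita overlaps Dexi on the other strand, whose level lay between 560 and 908 normalized counts, and without a stated strand setting reads there cannot be told apart.

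The chains of H2-DM differed between the genotypes in different directions. For H2-DMa the normalized counts were 12297 (Il10rb+/-) and 13815 (Il10rb-/-) at 1 week, 17268 and 18104 at 3 weeks, then 18701 and 17267 at 12 weeks. H2-DMb1 was at 8733 and 8922, then 10209 and 10862, then 11284 and 15842. H2-DMb2 was at 1255 and 1297, then 2336 and 2860, then 4067 and 2110. At 12 weeks the β chains thus went in opposite directions: the log2 ratio was 0.49 (95% counting interval 0.46 to 0.52) for H2-DMb1 and -0.95 (-1.0 to -0.89) for H2-DMb2, with -0.12 (-0.14 to -0.09) for H2-DMa. The ratio of H2-DMb2 amounted to a 1.93-fold lower level and was the widest of the 10 genes, and 74.0% of all genes tested had a smaller absolute ratio. H2-DMb1 and H2-DMb2 are near copies: 94.4% of 1255 aligned bases of their transcripts were identical, and 19.1% and 20.8% of the 75-base windows, the length of a read, also occurred in a transcript of another gene, for H2-DMb1 only in H2-DMb2. Reads from such windows may be lost or misplaced between them, so the level of each is uncertain. For H2-DMa, 10.4% of the exon length overlaps Brd2 on the other strand, and Brd2 lay between 5824 and 8907 normalized counts.

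H2-Oa, the α chain of the restraint on H2-DM, was among the lowest of the 10 genes. For H2-Oa the normalized counts were 859 (Il10rb+/-) and 782 (Il10rb-/-) at 1 week, 475 and 766 at 3 weeks, then 1270 and 997 at 12 weeks. Its log2 ratio was -0.14 (95% counting interval -0.29 to 0.02) at 1 week, where the interval held 0, 0.69 (0.47 to 0.92) at 3 weeks and -0.35 (-0.44 to -0.26) at 12 weeks. The 3-week value rests on 195 and 871 reads, and 90.2% of all genes tested had a smaller absolute ratio at that age. The β chain, H2-Ob, is no member of the 10 but completes H2-O. It was at 572 and 418 normalized counts at 1 week, 937 and 1072 at 3 weeks, then 1896 and 1095 at 12 weeks, a log2 ratio of -0.79 (-0.87 to -0.71) at the last age. H2-Eb2, a second I-E β gene with low expression, was at 54.5 and 16.5, then 43.8 and 39.6, then 174 and 101 normalized counts. For H2-Oa, 22.8% of the exon length overlaps BC051537 on the other strand, which lay between 114 and 326 normalized counts.

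**Figure D2:**
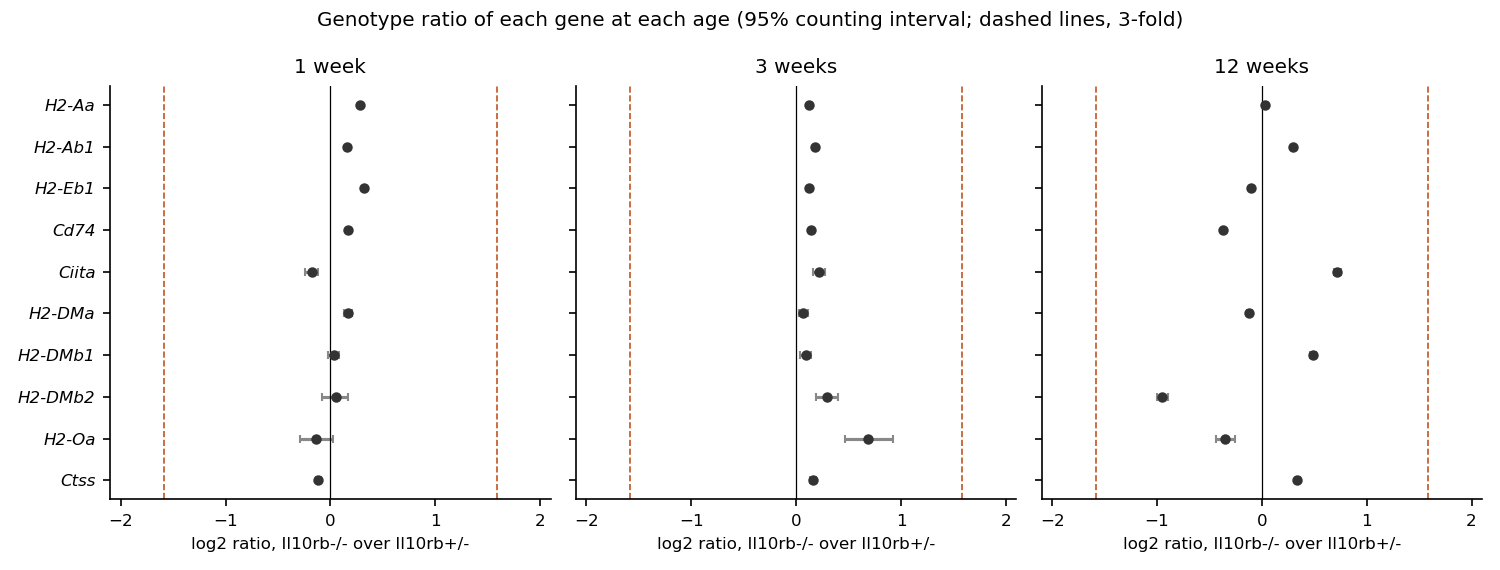
Log2 ratio of Il10rb-/- over Il10rb+/- normalized counts for each gene at 1, 3 and 12 weeks, with bars for the 95% counting interval and dashed lines at 3-fold. The 10 genes stayed inside the dashed lines at each age and spread most at 12 weeks, from -0.95 for H2-DMb2 to 0.72 for Ciita.

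By the study's rule of a more than 3-fold difference, 0 of the 10 genes passed at 1 week, where 3.50% of the 11067 genes with at least 50 normalized counts in a library did. At 3 weeks it was again 0 of 10, against 1.98% of all genes, and at 12 weeks 0 of 10, against 14.0%. With a 2-fold limit, 0 of the 10 passed at each age, against 6.96%, 4.95% and 24.6% of all genes, although H2-DMb2 crossed that limit at 12 weeks when scaled to RPM (-1.17). At 1 week, 7 of the 10 were higher in the Il10rb-/- library and 3 lower, at 3 weeks 10 were higher, and at 12 weeks 5 were higher and 5 lower (4 and 6 in RPM). All genes split 5088 to 5946, 5764 to 5286 and 5759 to 5306 at these ages, and 5068 to 5999 and 4286 to 6781 at 3 and 12 weeks in RPM. The median log2 ratio of the 10 genes was 0.10, 0.15 and -0.03, and that of all genes -0.04, 0.02 and 0.04. The median absolute log2 ratio was 0.16, 0.15 and 0.35 for the 10 genes, and 0.27, 0.19 and 0.49 for all genes. The wider spread at 12 weeks was thus shared with genes in general. A ratio of opposite sign at different ages, beyond its counting interval and of the same sign under each scaling, was seen for 7 of the 10 genes and for 23.5% of all genes. Such intervals narrow with depth, and most of the 10 genes are abundant.

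With 1 library per genotype and age, differences at any single age lack replicates. The genotypes can be tested over the ages, with 3 libraries a side and a term for age, in which case the error measures how far the genotype effect varied from age to age. This test in limma called 0 of the 10 genes and 0.0% of all genes at an adjusted p of 0.05, and 0 of the 10 and 853 of all genes (7.71%) at an unadjusted p under 0.05. The fitted log2 difference of the 10 genes ran from -0.20 (95% interval -0.87 to 0.47, adjusted p = 0.809) for H2-DMb2 to 0.25 (-0.30 to 0.80, adjusted p = 0.71) for Ciita. For Cd74 it was -0.02 with an interval of -1.01 to 0.98, which leaves room for a change of about 2-fold either way. For H2-DMa, the gene with the narrowest interval, it was 0.04 (-0.42 to 0.50). These intervals do not show that the genotypes were equal. The targeted gene Il10rb itself, with a fitted log2 difference of -5.68, had an adjusted p of 0.0616.

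The second question was how the pathway changed with age. In Il10rb+/- MΦs, the 4 most abundant genes were about 2-fold higher at 12 weeks than at 1 week: 1.91-fold for H2-Aa, 2.11-fold for H2-Ab1, 2.0-fold for H2-Eb1 and 1.96-fold for Cd74. In Il10rb-/- MΦs, H2-Aa was 1.61-fold and H2-Ab1 2.32-fold higher, the log2 ratio of H2-Aa coming to 0.69 on the deposited values and 0.09 in RPM. The 1.5-fold of H2-Eb1 and 1.35-fold of Cd74 turned into log2 ratios of -0.02 and -0.17 when libraries were scaled to RPM. That scaling lowered the median of all genes by 0.38 in the Il10rb+/- and by 0.60 in the Il10rb-/- comparison. H2-Ab1 was higher at 12 weeks under either scaling and in both genotypes, with log2 ratios of 0.70 and 0.61 in RPM. Since the 1-week Il10rb+/- pool stood apart in Y-linked reads, age and sex cannot be told apart in the Il10rb+/- comparison.

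The other members followed courses of their own. H2-DMb2 in Il10rb+/- MΦs was higher at each age, 1.86-fold from 1 to 3 weeks and 1.74-fold from 3 to 12 weeks, while in Il10rb-/- MΦs it was 2.20-fold higher at 3 than at 1 week and 1.36-fold lower at 12 than at 3 weeks. H2-Oa in Il10rb+/- MΦs was 1.81-fold lower at 3 than at 1 week and 2.68-fold higher at 12 than at 3 weeks. In Il10rb-/- MΦs it was 1.02-fold lower at 3 than at 1 week, a log2 ratio of -0.03 (95% counting interval -0.19 to 0.13), and 1.3-fold higher at 12 than at 3 weeks, which in RPM became a log2 ratio of -0.04. Ciita in Il10rb+/- MΦs was 1.47-fold lower at 12 than at 3 weeks, and in Il10rb-/- MΦs it was 1.62-fold higher at 3 than at 1 week. By the 3-fold rule, 0 of the 10 genes passed from 1 to 3 weeks in Il10rb+/- MΦs, against 6.56% of all genes, and 0 of 10 from 3 to 12 weeks, against 6.36%. From 1 to 12 weeks in Il10rb+/- MΦs, H2-DMb2 passed at 3.24-fold, 1 of 10 against 12.3% of all genes, a comparison singled out after its values were seen. In Il10rb-/- MΦs, 0 of 10 passed from 1 to 3 weeks, against 5.02%, and 0 of 10 from 3 to 12 weeks, against 14.2%.

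With the genotypes of an age pooled, limma called 0 of the 10 genes for 3 against 1 week, where it called 0.0181% of all genes, and 0 of the 10 for 12 against 3 weeks, where it called 0.0271%. For 3 against 1 week, H2-DMb2 had a fitted log2 difference of 1.02 (95% interval 0.20 to 1.84, adjusted p = 0.455 in limma). It was higher at 3 weeks in both genotypes. Without the 12-week libraries its adjusted p in limma was 0.00168, but that fit called 1053 of 11067 genes beside 1 of the 10. That fit was chosen after seeing the data and left fewer residual degrees of freedom than the main fit. For 12 against 3 weeks, H2-Oa had a fitted log2 difference of 0.90 (0.16 to 1.64, adjusted p = 0.208 in limma). H2-Ab1 had 0.67 (-0.30 to 1.65), H2-Aa 0.60 (-0.29 to 1.5) and H2-Eb1 0.54 (-0.33 to 1.42), each higher at 12 weeks in both genotypes and each with an interval that held 0.

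Ratios between genes of the same library do not depend on how libraries are scaled. They set the 12-week Il10rb-/- library apart. Per read of H2-Ab1 there were 2.44, 2.18 and 2.27 reads of Cd74 in Il10rb+/- MΦs at 1, 3 and 12 weeks, and 2.46, 2.11 and 1.43 in Il10rb-/- MΦs. Per 100 reads of H2-Ab1 there were 64.2, 59.2 and 60.7 reads of H2-Eb1 in Il10rb+/- MΦs, and 71.7, 56.8 and 46.2 in Il10rb-/- MΦs. The 12-week Il10rb-/- value was the lowest of the 6 for both pairs.

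Within H2-DM, the same library stood out the other way. Per 100 reads of H2-DMa there were 71.0, 59.1 and 60.3 reads of H2-DMb1 in Il10rb+/- MΦs and 64.6, 60.0 and 91.7 (95% counting interval 90.2 to 93.3) in Il10rb-/- MΦs. Per 100 reads of H2-DMb1 there were 14.4, 22.9 and 36.0 reads of H2-DMb2 in Il10rb+/- MΦs, against 14.5, 26.3 and 13.3 (12.8 to 13.8) in Il10rb-/- MΦs. The share of H2-DMb2 was thus the same in both genotypes at 1 week within counting error, and 12-week Il10rb-/- MΦs were back near the 1-week share. Per 100 reads of H2-DMa there were 6.98, 2.75 and 6.79 reads of H2-Oa in Il10rb+/- MΦs and 5.66, 4.23 and 5.77 in Il10rb-/- MΦs, so that H2-Oa was lowest against H2-DMa at 3 weeks in both genotypes. Per 100 reads of Cd74 there were 8.42, 6.25 and 4.93 reads of Ctss in Il10rb+/- MΦs and 6.88, 6.34 and 8.06 in Il10rb-/- MΦs.

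**Figure D3:**
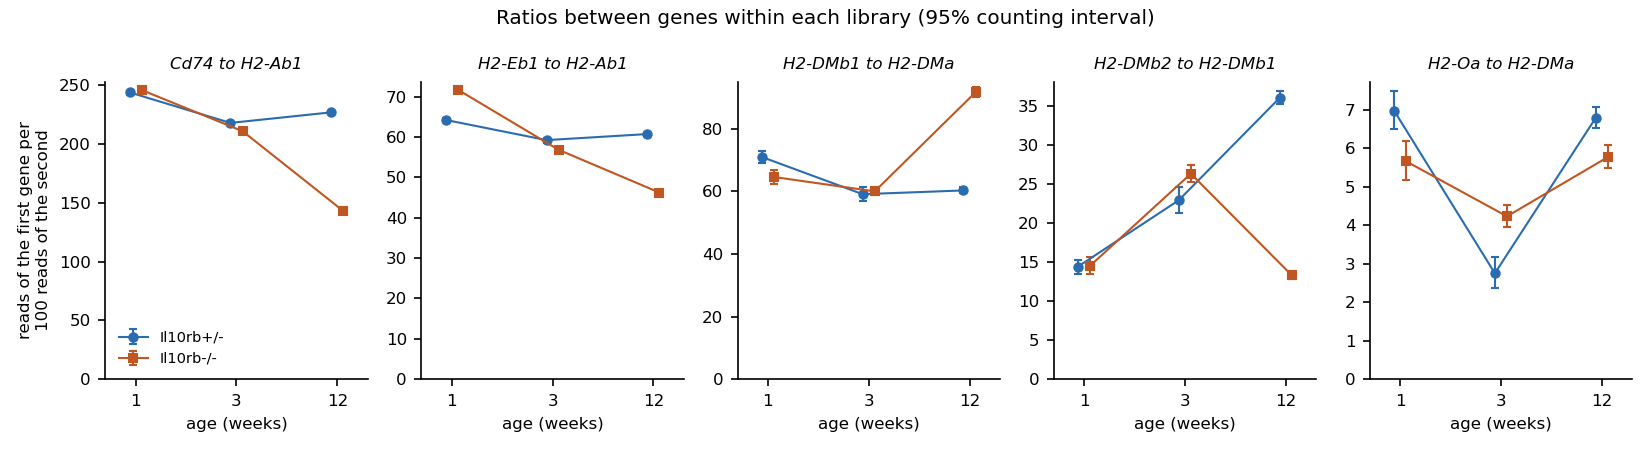
Reads of 1 gene per 100 reads of another in the same library, by age in weeks, with circles for Il10rb+/- and squares for Il10rb-/- libraries and bars for the 95% counting interval. The 12-week Il10rb-/- library lay lowest for Cd74 to H2-Ab1 (143) and H2-Eb1 to H2-Ab1 (46.2), highest for H2-DMb1 to H2-DMa (91.7) and lowest for H2-DMb2 to H2-DMb1 (13.3).

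Of 12 transcription factors of class II genes, 7 were higher in Il10rb-/- MΦs at 1 week, 7 at 3 weeks and 12 at 12 weeks, with median log2 ratios of 0.05, 0.08 and 0.52. In RPM, 11 were higher at 12 weeks, with a median of 0.30. Rfx5, a subunit of the X box complex, had log2 ratios of -0.36, -0.06 and 0.76, and Irf8, which acts on Ciita in myeloid cells, -0.21, 0.30 and 0.72. Irf1, which acts on a Ciita promoter under interferon γ, was at -0.79, 0.08 and 0.57.

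Genes of interferon γ signalling were read beside Ciita because interferon γ is the classical inducer of class II expression. Gbp2 and Cxcl9 were among those over 3-fold higher in Il10rb-/- MΦs at 3 weeks and again at 12 weeks. Gbp2, a guanylate-binding protein of host defence, was at 253 and 1474 normalized counts at 3 weeks and 328 and 7353 at 12 weeks, with log2 ratios of 2.54 and 4.49. Cxcl9, a chemokine for T cells, was at 195 and 2277, then 512 and 7744, with log2 ratios of 3.55 and 3.92. At the same ages Ciita differed by 0.22 and 0.72, H2-Aa by 0.12 and 0.03 and H2-Eb1 by 0.12 and -0.10. The receptor gene Ifngr1 was at -0.14, -0.08 and 0.59. The median of the 11 genes of this list was -0.19, 0.25 and 0.59, and 11 of 11 genes were higher at 12 weeks, or 10 in RPM. Limma called 0 genes of either list across ages, and 1 of the 12 factors and 3 of the 11 signalling genes had an unadjusted p under 0.05, against 7.71% of all genes.

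The machinery that prepares peptides showed both directions at 12 weeks. Of 12 lysosomal genes, 7 were higher and 5 lower in 12-week Il10rb-/- MΦs, with a median of 0.14. In RPM, 6 were higher and 6 lower, with a median of -0.08. Among the proteases, Lgmn, an endopeptidase of antigens and of the invariant chain, was at 22271 and 10560 normalized counts, a log2 ratio of -1.08. Ctsb was at -0.84 and Ctsl at -0.77, while Ctsz, Ctsc and Ctss were at 0.58, 0.41 and 0.34. Ifi30, which reduces disulfide bonds in antigens, was at 0.28. Atp6v0d2, a proton pump subunit with 3 to 119 reads, was the 1 lysosomal gene over 3-fold, higher at 1 week (3.10) and lower at 12 weeks (-2.56).

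Genes that act on class II molecules after assembly were lower in part. Cd83, which keeps class II at the surface by restraining its ubiquitination, was at 136280 and 64534 normalized counts at 12 weeks, a log2 ratio of -1.08, after -0.12 and -0.04 at 1 and 3 weeks. Cd63, a tetraspanin of the endosomes in which class II is loaded, was at 8538 and 1626 normalized counts, -2.39, and passed 3-fold. Sppl2a, the protease that clears the last fragment of the invariant chain, was at 0.91. Of the 6 genes of this list in the table, 4 were lower and 2 higher at 12 weeks, with a median of -0.36.

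**Figure D4:**
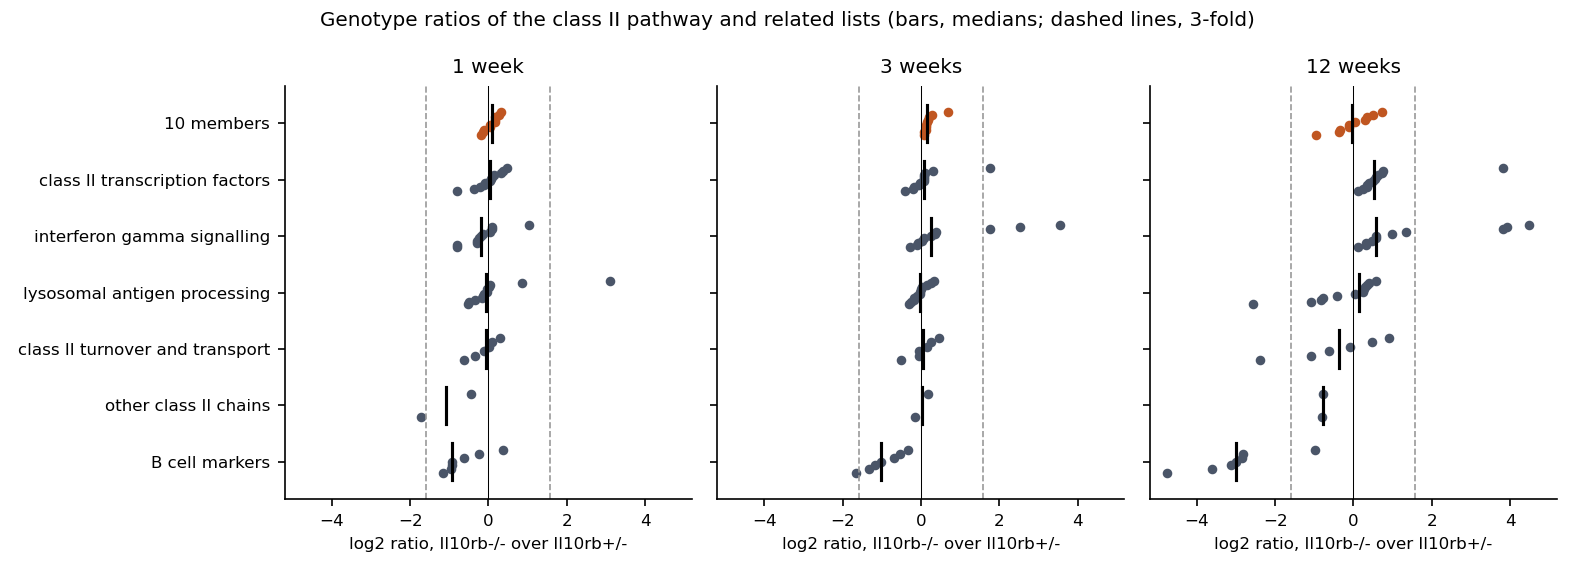
Log2 ratio of Il10rb-/- over Il10rb+/- normalized counts at 1, 3 and 12 weeks, with 1 point per gene past the filter, black bars for list medians and dashed lines at 3-fold. The 10 members stayed within -0.95 to 0.72, while interferon γ genes reached 4.49 and B cell markers had a median of -2.99 at 12 weeks.

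The gate, on CD11b, CD64, intermediate CD11c and absent CD103, is set to leave out most B cells and dendritic cells. Other cells that express class II could still lie within the sort, so their markers were read in the same libraries. B cells carry high levels of H2-DMb2, H2-Oa and H2-Ob. The summed level of 7 B cell markers came to 4572 (Il10rb+/-) and 3505 (Il10rb-/-) normalized counts at 1 week, 2794 and 1823 at 3 weeks, then 6503 and 1433 at 12 weeks. At 12 weeks 6 of the 7 were over 3-fold lower in Il10rb-/- MΦs, with a median of -2.99, and each of the 7 had reads in every library. This moved with H2-DMb2, H2-Oa and H2-Ob at 12 weeks, but not at 3 weeks. At 3 weeks 7 of the 7 markers were lower in Il10rb-/- MΦs, with a median of -1.03. H2-DMb2, H2-Oa and H2-Ob then had log2 ratios of 0.29, 0.69 and 0.19. At 1 week the marker median was -0.94, and these genes were at 0.05, -0.14 and -0.45. The part of B cells in the levels of these genes was not tested.

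Dendritic cells are the other main class II-bearing cells. Their 7 markers summed to 2600 and 2618 normalized counts at 1 week, 1803 and 3920 at 3 weeks, then 11431 and 40023 at 12 weeks. Much of these sums was Ccr7, a chemokine receptor of activated cells, with 1029 and 3160 at 3 weeks, then 10331 and 38707 at the last age. The other 6 markers summed to 774 and 761 at 3 weeks, then 1100 and 1316 at 12 weeks. At 3 weeks Zbtb46, Flt3 and Cd209a had log2 ratios of -0.59, -0.53 and -0.47, while Xcr1 had 1.27 (9 and 60 reads) and Batf3 0.09. At 12 weeks these markers moved in opposite directions. Zbtb46, Flt3 and Xcr1 had log2 ratios of 1.16, 0.78 and 1.53, and Cd209a and Batf3 had -1.46 and -1.39. Clec9a had at most 14 reads in a library. The 4 monocyte markers summed to 13395 and 31509 at 12 weeks and to 4310 to 21458 in the other libraries. Markers of mature MΦs were lower in part: Cx3cr1 was at 8074 and 906 normalized counts and Adgre1 at 16537 and 3800, log2 ratios of -3.16 and -2.12, while Csf1r and Fcgr1 stood at -0.01 and 0.04. These shifts moved with the 12-week values of Cd74, Ciita, H2-DMb1 and Ctss as well, and their part in them was not tested. The remaining lists ranged over the 6 libraries from 104972 to 166165 summed normalized counts for 9 gate and MΦ markers, 20 to 2760 for 3 markers that the gate excludes, 3833 to 21527 for 4 plasma cell markers, 525 to 3237 for 5 T cell markers and 135 to 1792 for 7 epithelial markers. Jchain, Cd3e, Cd3g, Krt19, Krt20 and Ly6c1 had 0 reads in 1-week Il10rb+/- MΦs, and Cd8a had 0 reads in 5 of the 6 libraries. The T cell sum was mostly Cd4 in the 1-week and 3-week libraries, where the other markers summed to at most 30 normalized counts. At 12 weeks Cd4 had a log2 ratio of -3.03, while the other 4 T cell markers summed to 87 in Il10rb+/- and 315 in Il10rb-/- MΦs.

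The genes whose levels ran most like the class II chains were sought among 8923 genes, by Pearson's r over the 6 libraries with the mean log2 level of H2-Aa, H2-Ab1, H2-Eb1 and Cd74. They were Rab10os (0.996), Map7d1 (0.994), Lyrm4 (0.994), Ninj1 (0.993) and Rnh1 (0.993), and 413 genes exceeded 0.9, so likeness over so few libraries is common. For Ciita they were Fam53a (0.996), B3galnt2 (0.98), Usp25 (0.976), Gm16894 (0.972) and Nelfcd (0.971), with 65 genes over 0.9. Both lists are descriptions of 6 libraries that share their ages, genotypes and scaling.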

How the data were processed

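RNA-seq of sorted colonic P3/P4 MΦs was analysed from 1 deposited table. According to the study's methods and labels, TopHat placed single-end reads on mm10, HTSeq gave gene counts and DESeq size factors normalized them, so what the authors deposited is a normalized signal per gene in which 0 appears as 1. Tool versions, annotation and strand setting are not given in the sources used here. In each library 100% of the other values were whole multiples of 1 step, within 0.02 of a whole read, which gave the reads per gene. No count model was used. Ratios were taken on normalized counts, with 95% intervals from the exact Clopper-Pearson bounds of a library's read share, which cover counting error only. Genes with 50 normalized counts in at least 1 library (11067) entered the 3-fold rule and limma 3.58.1 (R 4.3.3), fitted to log2(value + 1) with genotype and age as terms, Benjamini-Hochberg adjustment and a trend of variance on mean, which left 2 residual degrees of freedom. The 3 libraries of a genotype differ in age, so p-values measure the spread between these libraries and not that between mice of 1 age.

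TPM used exon lengths of GENCODE M21 (GRCm38), in which 14085 of 14097 genes were found. Alternatives were RPM, trimmed mean (TMM) scaling, a pseudocount of 10, no filter, a 2-fold limit, no age term and leaving out each age. Scripts in Python 3.11.15 (numpy 2.4.6, pandas 2.3.3, scipy 1.17.1, matplotlib 3.10.9) were tested on simulated data. The members, the lists (class II transcription factors, interferon γ signalling, lysosomal processing, turnover and transport, other class II chains, cell type markers) and the tests were chosen with earlier results of these data known. The genes named are the 10 members, Il10rb, the members of these lists that passed 3-fold or that stand beside a member in the pathway, and the 5 genes most like the chains and most like Ciita. H2-Ea and the MARCH ubiquitin ligases were not analysed here, and 1 gene of the lists is not reported here.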

Additional observations from a re-analysis of the deposited data

Results flagged for a closer look

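For 7 of the 10 genes the genotype ratio had opposite signs at different ages, each beyond its counting interval and of the same sign under each scaling. The same held for 2597 of the 11067 genes (23.5%). In RPM alone H2-Aa also changed sign, at 0.28, 0.08 and -0.19. With 1 library per group these differences between ages were not tested. The log2 ratio of Il10rb-/- over Il10rb+/- at 1, 3 and 12 weeks was 0.32, 0.12 and -0.10 for H2-Eb1, 0.17, 0.07 and -0.12 for H2-DMa, and 0.17, 0.14 and -0.37 for Cd74. Ciita turned upward with age, at -0.18, 0.22 and 0.72, and so did Ctss, at -0.12, 0.16 and 0.34. For H2-DMb2 it was 0.29 at 3 and -0.95 at 12 weeks, and for H2-Oa 0.69 and -0.35.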

How the results depend on the processing

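The 0 of 10 genes over 3-fold between the genotypes held at each age with RPM, TMM, a pseudocount of 10 and no filter, and with a 2-fold limit on the deposited values. The median log2 ratio of the 10 genes became 0.10 at 3 weeks and -0.25 at 12 weeks in RPM, and -0.05 at 12 weeks with TMM. These follow the shift that the scaling gives to all genes. Of 30 single ratios, 1 changed sign in RPM (H2-Aa at 12 weeks) and 0 with TMM or the pseudocount. H2-DMb2 from 1 to 12 weeks in Il10rb+/- MΦs fell short of 3-fold in RPM, leaving 0 of 10. Limma called 0 of the 10 genes for genotype under each alternative, with adjusted p between 0.603 and 0.999. For 3 against 1 week the number called ranged from 0 to 1 when the 12-week libraries were left out (H2-DMb2). These added age fits, the TMM fit and the principal lengths were chosen after seeing the data. With principal transcript lengths, 4 genes kept their rank. The planned edgeR fits were not run, since the values are normalized and their zeros replaced. No paired analysis was possible because each genotype and age has 1 library, and age was a term of the main fit.

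Of the 10 genes, depth limits H2-Oa most (195 reads in 3-week Il10rb+/- MΦs), and of the related genes Atp6v0d2 (as few as 3 reads) and H2-Eb2 (as few as 11). The main limits are 1 library per group, pools at 1 week, a sort on class II protein and a table without strand information. At the later ages, genotype also cannot be told apart from colitis.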
